A study of Mus musculus with 20 samples.

Results

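The 10 core glycolytic enzymes Hk1, Hk2, Gpi1, Pfkl, Aldoa, Tpi1, Gapdh, Pgk1, Pgam1 and Pkm were followed through 20 RNA libraries from mouse cancer-associated fibroblasts (CAFs), the fibroblasts of the tumour stroma, which were primary cells that had been immortalised. They were chosen by symbol from a table of 32285 genes, in which 11 rows carried one of the 10 symbols because Aldoa was listed under a pair of IDs. All 10 were expressed well enough to be tested, with means over the 20 libraries from 26.7 TPM (Hk1) to 4513 TPM (Gapdh). Each of 4 groups had 5 libraries, and all cells were treated for 32 h. The sample titles name DMSO, the vehicle, for every group but the one with EIPA. A pair of groups was kept at a glutamine level of 0.2 mM, either with EIPA at 25 uM or in DMSO alone. The other pair was kept at 4 mM, either with IL-1a at 25 pg/mL or in DMSO alone. EIPA, a relative of amiloride, blocks sodium-proton exchangers and with them the uptake of fluid by macropinocytosis, and IL-1a is an inflammatory cytokine. The labels' protocol gives the EIPA dose in mM and the sample titles in uM, and the titles are followed here. Whether the replicates were separate cultures, and how many isolates the cells come from, is not stated in the labels, and p-values here cover the spread among these libraries, which may be technical.

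Glycolysis splits glucose into a pair of pyruvate molecules in the cytosol and yields ATP and NADH. Its early steps spend ATP, at hexokinase and phosphofructokinase, and its late steps regain it, at phosphoglycerate kinase and pyruvate kinase. CAFs are known for active glycolysis, and glutamine is the other main carbon and the main nitrogen source of cultured fibroblasts. Hexokinase 1 (Hk1) and hexokinase 2 (Hk2) trap glucose in the cell as glucose 6-phosphate, Gpi1 turns this into fructose 6-phosphate, and Pfkl, the liver-type phosphofructokinase, commits it to the pathway. Aldoa cleaves the product into 3-carbon sugars, which Tpi1 interconverts. Gapdh oxidises one of them, Pgk1 makes ATP from the result, Pgam1 moves its phosphate group, and Pkm, pyruvate kinase, makes the second ATP and pyruvate. Enolase, the step between Pgam1 and Pkm, is given with the other isozymes.

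In mm10, Hk1 (ENSMUSG00000037012) covers chromosome 10 from 62268855 to 62379908 and Pfkl (ENSMUSG00000020277) covers 77986947 to 78010083 of it, both on the minus strand. Hk2 (ENSMUSG00000000628, 82725025 to 82774454), Tpi1 (ENSMUSG00000023456, 124810586 to 124814296) and Gapdh (ENSMUSG00000057666, 125161715 to 125166467) are all on chromosome 6, minus strand. Gpi1 (ENSMUSG00000036427, 34201330 to 34230336) is on chromosome 7, minus strand. On plus strands are Pgk1 (ENSMUSG00000062070) on chromosome X, 106187100 to 106203699, Pgam1 (ENSMUSG00000011752) on chromosome 19, 41911923 to 41918660, and Pkm (ENSMUSG00000032294) on chromosome 9, 59656368 to 59679375. The Aldoa row used throughout (ENSMUSG00000030695) covers chromosome 7 from 126795234 to 126800751, and the second row (ENSMUSG00000114515) covers 126800790 to 126809108, upstream on the same minus strand. The second row had group means between 1.32 and 3.08 TPM, against 426 to 932 TPM for the first. All 10 enzymes are protein-coding genes, and the values are sums over their transcripts, so exons and isoforms such as the M1 and M2 forms of pyruvate kinase are not resolved.

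The upstream sequences of 4 enzymes are shown because these enzymes behaved differently in the comparisons that follow. Hk2 did not fall in low glutamine, Gapdh and Pgk1 fell but did not rise with EIPA, and Aldoa fell and rose as most of the others did. Each sequence holds the 250 bases before a RefSeq transcript start in GRCm38.p6, 5′ to 3′ on the strand of the gene, in which no exon of GENCODE M21 lies. Capitals mark ACGTG on either strand, the core letters of the element bound by hypoxia-inducible factor (HIF), which is known for raising glycolytic genes. The windows are chr6:82774455-82774704 (Hk2, minus strand), chr7:126799255-126799504 (Aldoa, minus strand, one of 3 starts), chr6:125165774-125166023 (Gapdh, minus strand) and chrX:106186850-106187099 (Pgk1, plus strand).
Hk2: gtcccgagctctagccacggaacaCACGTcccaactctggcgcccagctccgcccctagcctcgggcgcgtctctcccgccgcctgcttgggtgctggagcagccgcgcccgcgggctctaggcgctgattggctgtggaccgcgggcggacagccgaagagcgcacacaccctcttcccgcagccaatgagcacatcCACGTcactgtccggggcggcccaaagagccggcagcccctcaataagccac
Aldoa: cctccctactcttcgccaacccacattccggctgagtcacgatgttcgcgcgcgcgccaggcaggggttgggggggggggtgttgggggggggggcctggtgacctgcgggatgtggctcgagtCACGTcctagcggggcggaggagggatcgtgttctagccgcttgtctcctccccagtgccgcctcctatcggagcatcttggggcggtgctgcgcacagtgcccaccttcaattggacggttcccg
Gapdh: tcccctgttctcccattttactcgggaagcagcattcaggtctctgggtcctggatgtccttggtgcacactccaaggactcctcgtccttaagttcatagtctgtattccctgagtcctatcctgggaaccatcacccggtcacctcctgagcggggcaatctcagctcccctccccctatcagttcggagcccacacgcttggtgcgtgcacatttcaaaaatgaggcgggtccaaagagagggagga
Pgk1: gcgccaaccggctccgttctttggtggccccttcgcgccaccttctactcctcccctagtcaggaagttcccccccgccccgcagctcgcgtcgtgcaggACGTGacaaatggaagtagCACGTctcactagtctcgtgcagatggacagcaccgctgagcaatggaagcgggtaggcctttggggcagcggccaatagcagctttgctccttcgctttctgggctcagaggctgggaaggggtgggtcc

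RefSeq gave 14 starts for the 10 enzymes, each with a window of 300 bases that runs from 250 before the start to 50 after it. ACGTG or its reverse complement CACGT occurred in 8 of the 14 windows, from 7 of the 10 genes, and in 19.6% of 32817 windows of the same length over all genes. A pair of Aldoa windows overlap and hold the same match, so that 1 site counts in both. Hk2 and Pgk1 had it at 2 places each, all before the start, Aldoa had it at 1 place in the window shown, and Gapdh had it only after the start, outside the printed stretch. None of the windows of Gpi1, Pfkl and Tpi1 held it. GCGTG, the other form of the core, occurred in 4 of the 14 windows against 32.4% of all. CACGTG, the E-box of MYC and its relatives, which contains ACGTG, occurred in 0 of the 14 windows against 7.15% of all. The share of G and C was 51.3% to 67.3% in the 14 windows, and the windows of all genes were not matched to it. Whether the enzymes hold more of these letters than windows of like composition was not tested. Such matches are letters in a window and say nothing of binding in these cells.

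Facts of the whole data set that touch the enzymes are these. TPM, a transcript's share of all transcripts scaled to a fixed total, keeps no trace of sequencing depth, so the depth of the libraries is unknown and no counting interval is given. Of 10 fibroblast markers 9 were expressed, with a mean of 1827 TPM for Col1a1, a collagen, while Lum, lumican, was at 0.10 TPM. Of the markers of other cell types, Ptprc (0.0005 TPM), Adgre1 and Cd3e (listed at 0) of leukocytes, Epcam (0.103 TPM) of epithelium, Pecam1 (0.0775 TPM) and Cdh5 (0.008 TPM) of endothelium, Rgs5 (0.096 TPM) of mural cells and Sox10 (listed at 0) of Schwann cells were at or near 0. Others from the same lists were not, with means of 176 TPM for the keratin Krt19, 10.3 TPM for Krt18, 7.78 TPM for the mural Mcam, 4.95 TPM for the endothelial Kdr and 3.64 TPM for the leukocyte Cd68. The libraries of IL-1a replicates 1 and 5 and vehicle replicate 5, all at 4 mM, stood apart on the third principal component (4.07% of the variance), with Ccn1, a gene picked after its values were seen, at 201, 235 and 231 TPM against 379 to 599 TPM in the other 7 libraries at 4 mM. In these 3 libraries Pgam1 was at 622 to 688 TPM, below the 734 to 783 TPM of the other 7. The other 9 enzymes overlapped between the 3 and the 7. Leaving out the 3 libraries changed the call of none of the 10 enzymes in any of the 5 comparisons.

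In low glutamine the pathway was expressed at a lower level with 1 exception. Of the 10 enzymes, 9 fell at 0.2 mM against 4 mM glutamine in vehicle (limma on log2(TPM + 1), Benjamini-Hochberg adjusted p under 0.05 over 12350 tested genes), and the exception was Hk2. Of all tested genes 73.3% were called in this comparison, 27.9% lower and 45.4% higher. The median tested gene was higher by 0.14 (log2) at 0.2 mM, so changes between the glutamine levels are given relative to it, with calls from the unshifted values. The median enzyme was at -0.91 before and -1.04 after this shift. With median-of-ratios scaling, which removes that shift, the same 9 enzymes fell, and over all genes 4268 were higher and 4521 lower, in place of 5606 and 3449. In RNA from whole cultures, fewer cells that express a gene and less of its RNA per cell cannot be told apart.

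Pfkl changed most. Its 5 vehicle libraries at 4 mM were at 78.1, 74.7, 74.8, 68.5 and 53.5 TPM, and those at 0.2 mM at 17.8, 13.7, 12.9, 15.5 and 13.2 TPM. Every low-glutamine library lay below every replete one, at a mean 0.209 times as high, although replicate 5 at 4 mM was well under the others of its group. Relative to the median gene Pfkl fell by 2.32 (log2 change of -2.32, SE 0.11, limma adjusted p = 5.0e-13). Gpi1, the isomerase before it, went from 309 ± 13.4 TPM (SD, n = 5) to 135 ± 10.2 TPM, and Aldoa, after it, from 896 ± 41.9 to 426 ± 23.7 TPM. These were changes of -1.33 ± 0.05 and -1.21 ± 0.05 relative to the median gene (SE, limma adjusted p = 8.0e-14 and 2.0e-13), with no overlap of the groups for either.

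Hk1 was at 35.1, 35.4, 35.2, 30.8 and 32.6 TPM in the replete vehicle libraries and at 16.7, 16.5, 17.2, 14.9 and 17.4 TPM in the low-glutamine ones. Its groups did not overlap, and it fell by 1.12 relative to the median gene (-1.12 ± 0.06, limma adjusted p = 1.3e-11). Tpi1 went from 685 ± 17.5 to 353 ± 17.5 TPM (-1.09 ± 0.05, limma adjusted p = 2.5e-13). The same comparison took Gapdh from 5623, 5728, 5597, 5846 and 5574 TPM to 3038, 3119, 3201, 3190 and 3085 TPM. The Gapdh groups were narrow and far apart, and the change before the shift was -0.86 ± 0.04 (limma adjusted p = 4.9e-13).

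Among the 9 enzymes that fell, Pkm, Pgam1 and Pgk1 had the smallest changes. This was not so of all late steps, as the enolase Eno1, between Pgam1 and Pkm, was at -1.26 ± 0.08 relative to the median gene. Pkm went from 1996, 1979, 1863, 1698 and 1471 TPM at 4 mM to 1108, 1099, 1107, 1039 and 1023 TPM at 0.2 mM, a change of -0.87 ± 0.08 relative to the median gene (limma adjusted p = 1.0e-07). Pgam1 went from 729 ± 62.2 to 459 ± 40.9 TPM (-0.80 ± 0.08, limma adjusted p = 1.1e-07). Neither overlapped between the groups, and in both the lowest replete library was replicate 5. Pgk1 had the smallest fall of the 9. Its replete vehicle libraries were at 841, 797, 763, 726 and 598 TPM and its low-glutamine ones at 570, 582, 613, 538 and 610 TPM, so that replicate 5 at 4 mM lay among the low-glutamine values. The change was -0.48 ± 0.08 relative to the median gene (limma adjusted p = 7.7e-04). Without the 3 libraries that stand apart the unshifted change of Pgk1 was -0.42, in place of -0.35. The groups did not overlap for 8 of the 10 enzymes, all lower at 0.2 mM, as for 22.7% of tested genes in that direction and 37.2% in the other.

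Hk2, the inducible hexokinase, was at 31.3, 28.9, 26.6, 24.9 and 24.4 TPM in replete vehicle and at 29.8, 30.9, 30.9, 33.3 and 29.5 TPM in low glutamine. The groups overlapped through replicate 1 at 4 mM alone, the highest of its group. The unshifted difference was 0.18 ± 0.08 and did not pass (limma adjusted p = 0.058), and relative to the median gene it was 0.04. It passed as higher without vehicle replicate 1 at 4 mM (0.23, limma adjusted p = 0.02), without replicate 2 (0.20, limma adjusted p = 0.05 after rounding) and with only these groups in the model (limma adjusted p = 0.034), and was 0.03 under median-of-ratios scaling (limma adjusted p = 0.79). Over all alternatives its adjusted p lay between 0.02 and 0.79.

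**Figure D1:**
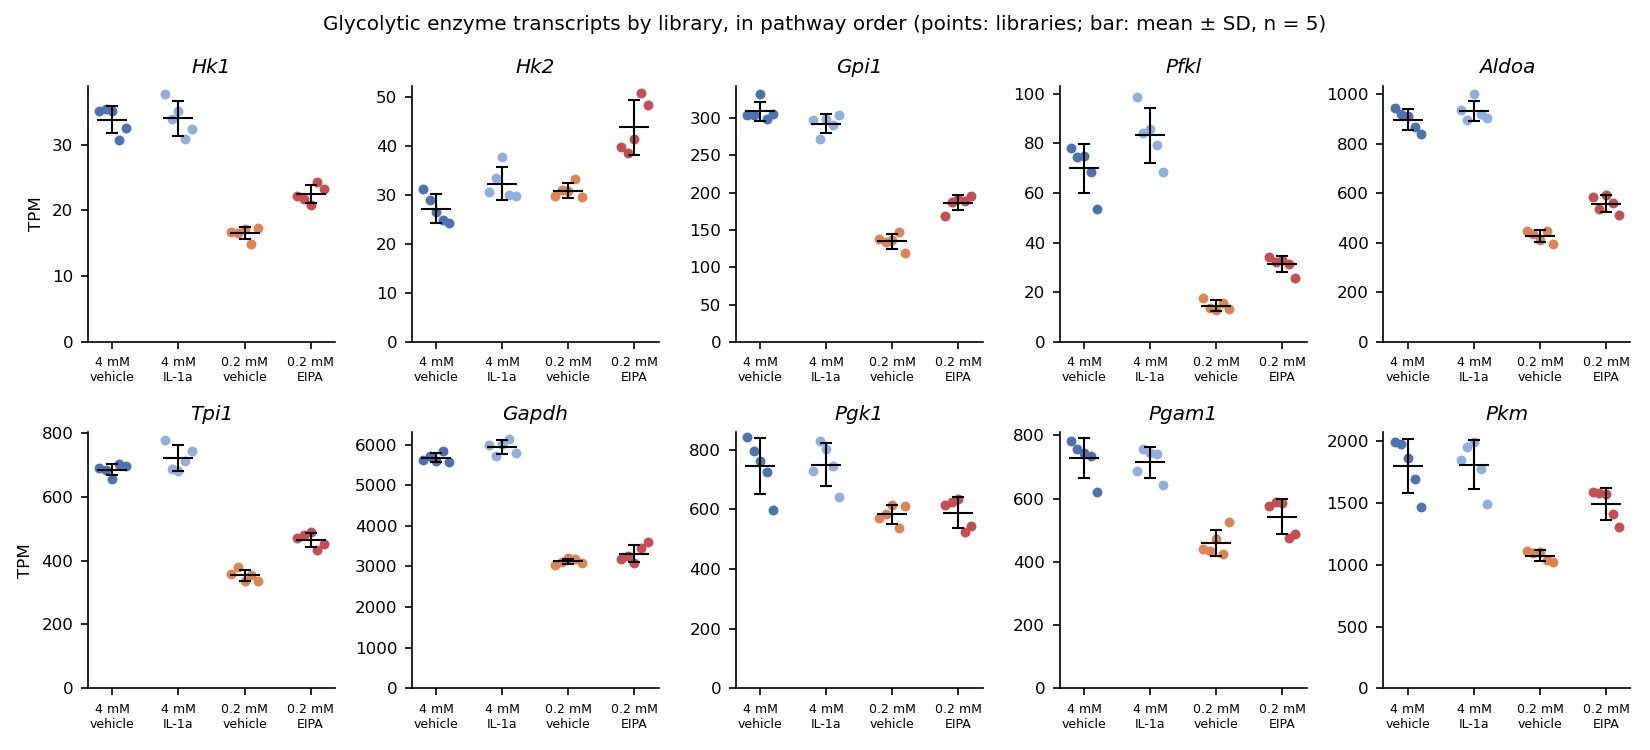
TPM of each enzyme (vertical axes, from 0) in the 20 libraries, in pathway order, with groups along the horizontal axis, points for libraries in the order of replicates 1 to 5, and bars for the mean ± SD of 5. All but Hk2 are lower in vehicle at 0.2 mM than at 4 mM, and Hk2 is highest with EIPA, at 38.5 to 51.0 TPM.

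Of the 9 tested markers of fibroblasts all 9 fell in the same comparison, where 27.9% of all tested genes fell. Their median was -2.01 before and -2.15 after the shift to the median gene. The summed level of the 10 listed markers was 3444 to 4123 TPM at 0.2 mM against 9435 to 10484 TPM at 4 mM in vehicle. The 3 endothelial markers summed to 6.12 to 10.19 TPM at 0.2 mM and 2.57 to 3.21 TPM at 4 mM in vehicle, nearly all of it Kdr, and the 3 Schwann cell markers to 1.16 to 1.92 and 0.71 to 0.98 TPM, without overlap in either. The sums of the 5 leukocyte markers (2.00 to 2.67 and 1.56 to 2.67 TPM), the 5 epithelial markers (132.91 to 205.53 and 185.99 to 397.09 TPM) and the 3 mural markers (7.05 to 9.93 and 7.35 to 12.5 TPM) overlapped. The epithelial sum was mostly Krt19, and all 3 tested epithelial markers were called lower at 0.2 mM (median -0.95 before and -1.09 after the shift). Of these, Krt18 (4.02 to 5.59 and 10.63 to 14.74 TPM) and Cdh1 (0.22 to 0.37 and 1.23 to 1.80 TPM) did not overlap. The part of these markers in the fall of the enzymes was not tested.

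With EIPA at 0.2 mM glutamine most of the enzymes were higher again, and none was lower. Against vehicle at 0.2 mM, 8 of the 10 rose and Gapdh and Pgk1 did not pass, where 48.5% of all tested genes were called, 27.4% higher and 21.1% lower. The median enzyme was at 0.41 and the median of all tested genes at 0.02. The groups did not overlap for 7 enzymes, against 20% of tested genes that were higher without overlap and 14.7% that were lower. This comparison shares its vehicle libraries with the one between the glutamine levels, so a low value in these 5 libraries enters both with opposite sign.

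The regulated, ATP-spending steps moved as follows. Pfkl was at 34.3, 32.2, 33.1, 31.5 and 25.7 TPM with EIPA, against the 12.9 to 17.8 TPM of vehicle at 0.2 mM, and 2.15 times as high on average. All EIPA libraries lay above all vehicle libraries, replicate 5 being the lowest of its group, and the log2 fold change was 1.05 ± 0.11 (limma adjusted p = 1.3e-07). Hk2 was at 39.7, 38.5, 41.4, 51.0 and 48.4 TPM with EIPA, above every other library of the study, of which the highest was at 37.7 TPM. Its rise over vehicle at 0.2 mM was 0.48 ± 0.08 (limma adjusted p = 8.0e-05). Hk1 was at 22.2, 21.8, 20.8, 24.3 and 23.2 TPM, above vehicle at 0.2 mM and below every library at 4 mM, with a rise of 0.42 ± 0.06 (limma adjusted p = 1.4e-05).

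The steps of the sugar phosphates and pyruvate kinase rose by similar amounts. Gpi1 reached 186 ± 10.2 TPM (0.46 ± 0.05, limma adjusted p = 4.2e-07), Aldoa 557 ± 34.4 TPM (0.39 ± 0.05, limma adjusted p = 2.7e-06) and Tpi1 465 ± 21.7 TPM (0.40 ± 0.05, limma adjusted p = 5.4e-07). For these 3 enzymes, as for Hk1 and Pfkl, the EIPA libraries lay above vehicle at 0.2 mM and below vehicle at 4 mM without overlap. Pkm was at 1591, 1579, 1572, 1411 and 1303 TPM with EIPA (0.47 ± 0.08, limma adjusted p = 1.1e-04). It lay above all low-glutamine vehicle libraries, and its upper values overlapped the lowest at 4 mM. Pgam1 rose least of the 8, to 544 ± 56.9 TPM (0.24 ± 0.08, limma adjusted p = 0.013), and its libraries overlapped those of vehicle, which reached 526 TPM.

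Gapdh was at 3181, 3257, 3094, 3452 and 3605 TPM with EIPA, against 3038 to 3201 TPM with vehicle, a difference of 0.08 ± 0.04 (limma adjusted p = 0.12). Pgk1 was at 615, 625, 636, 525 and 544 TPM with EIPA, on both sides of the vehicle libraries (0.01 ± 0.08, limma adjusted p = 0.92), and its sign turned under median-of-ratios scaling (-0.03). Within the EIPA group replicates 4 and 5 lay apart from replicates 1 to 3 in 8 enzymes, a split noticed after the values were seen. They were lower in Pgam1 (476 and 487 TPM against 578 to 589 TPM), Pgk1, Pkm, Pfkl and Tpi1, and higher in Hk1, Hk2 and Gapdh. Leaving out either of them changed no call of an enzyme in this comparison.

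**Figure D2:**
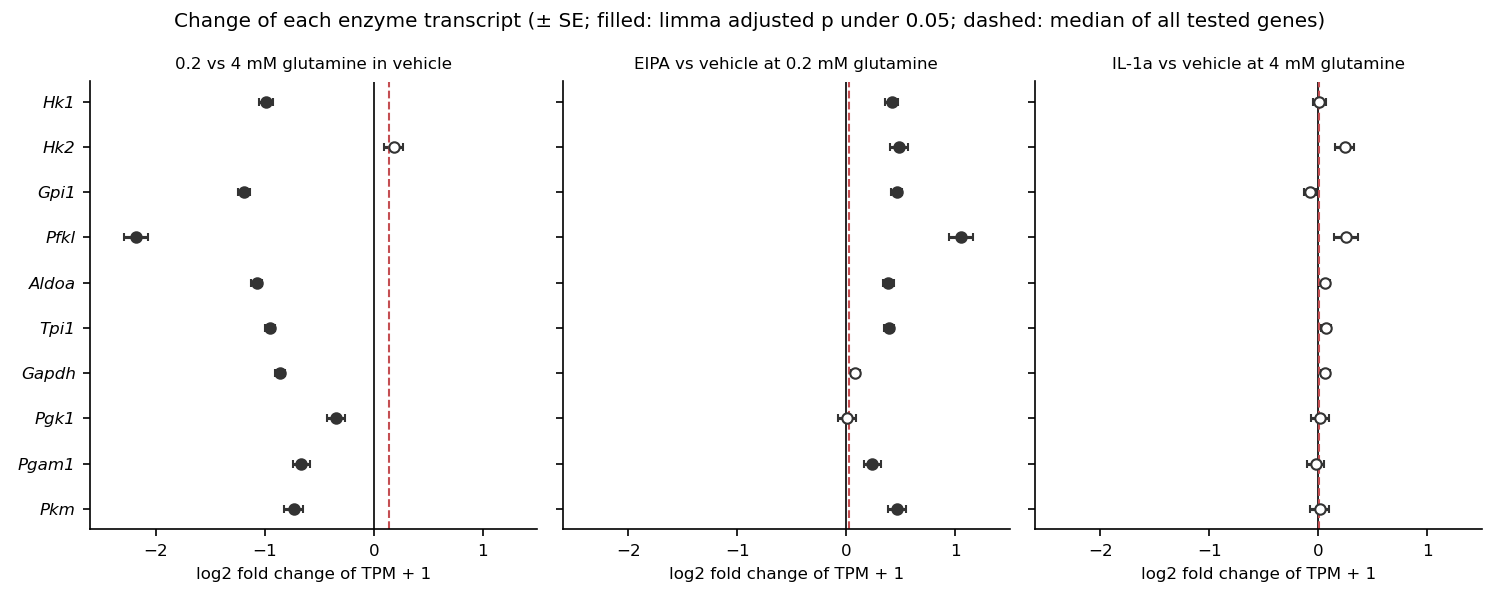
Log2 fold change of TPM + 1 (horizontal axes) of each enzyme in 3 comparisons, as estimate ± SE, filled where limma's adjusted p was under 0.05, with a dashed line at the median of all tested genes. In low glutamine 9 enzymes lie left of 0 with Pfkl farthest, with EIPA 8 lie to the right of 0 and pass, and with IL-1a all 10 are open.

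The mitochondrially encoded genes made up 5.69% ± 0.63 of TPM in the EIPA libraries (SD, n = 5), against 8.87% ± 0.28 in vehicle at 0.2 mM, and a smaller share for them leaves more TPM to all other genes. With those genes left out and the rest rescaled, the same 8 enzymes rose, and over all genes 2781 were higher and 3143 lower in place of 3383 and 2603. The fibroblast markers summed to 1995 to 2330 TPM with EIPA, below vehicle at 0.2 mM. Of the 9 tested 3 rose (33.3%) and 5 fell (55.6%), against 27.4% and 21.1% of all tested genes. The 5 leukocyte markers summed to 7.34 to 8.70 TPM with EIPA, of which only Cd68 passed the filter for testing, above the 2.00 to 2.67 TPM of vehicle. Mural markers (3.03 to 4.27 against 7.05 to 9.93 TPM), epithelial markers (88.52 to 119.85 against 132.91 to 205.53 TPM) and Schwann cell markers (0.76 to 1.07 against 1.16 to 1.92 TPM) summed to less with EIPA than with vehicle at 0.2 mM, without overlap, and endothelial markers overlapped (6.34 to 8.98 and 6.12 to 10.19 TPM). The epithelial sum was mostly Krt19, and Krt18 of the same list went the other way (9.52 to 11.65 against 4.02 to 5.59 TPM). Of the 3 tested epithelial markers 1 rose and 1 fell with EIPA. The part of these markers in the result was not tested.

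As a whole the 10 enzymes took 1.10% ± 0.04 of all TPM in replete vehicle, 0.622% ± 0.007 in low-glutamine vehicle and 0.725% ± 0.007 with EIPA (SD, n = 5). With IL-1a the share was 1.13% ± 0.04. Without Gapdh the other 9 enzymes took 0.530% in replete vehicle, 0.309% in low-glutamine vehicle and 0.393% with EIPA. These sums are descriptions, with no test.

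**Figure D3:**
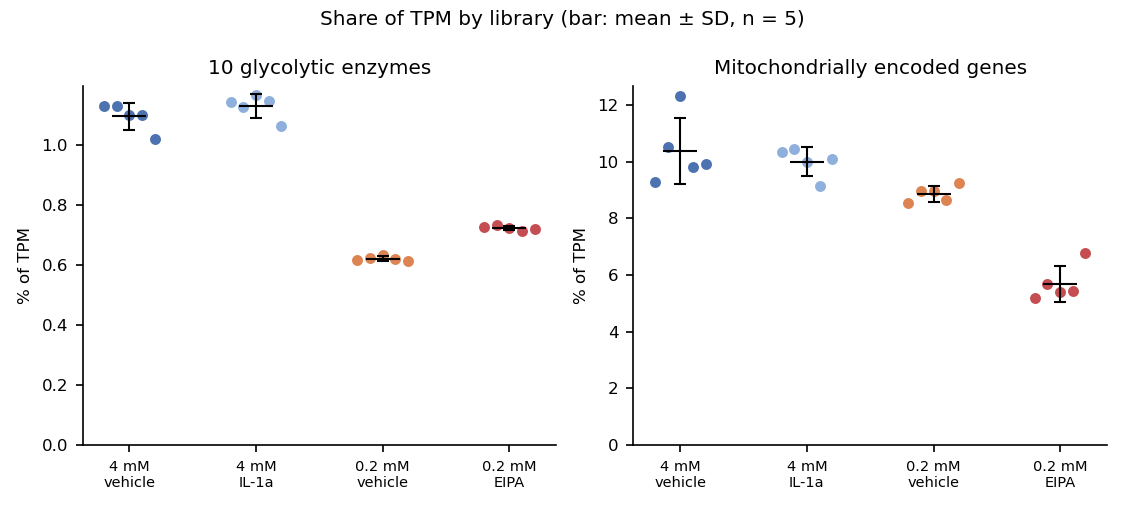
Share of TPM in percent (vertical axes, from 0) of the 10 enzymes and of the mitochondrially encoded genes in the 20 libraries, with points for libraries and bars for the mean ± SD of 5. The enzymes' share is 0.615% to 0.633% in vehicle and 0.715% to 0.734% with EIPA at 0.2 mM, and above 1.02% in all libraries at 4 mM, and the mitochondrial share is lowest with EIPA.

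The cells with EIPA at 0.2 mM glutamine still differed from replete vehicle in all 10 enzymes. Against vehicle at 4 mM 9 were lower and Hk2 was higher, where 76.7% of tested genes were called, 28.0% lower and 48.7% higher, and the median gene was higher by 0.18. The groups did not overlap for 7 of the lower enzymes and for Hk2, against 23.1% of tested genes that were lower and 41.6% that were higher without overlap. Relative to it, Hk2 was at 0.49 (unshifted 0.66 ± 0.08, limma adjusted p = 3.5e-07), and its mean was 1.61 times that of replete vehicle. Pfkl was at -1.30 (limma adjusted p = 6.9e-09), Gapdh at -0.95 (limma adjusted p = 1.2e-12) and Gpi1 at -0.90 (limma adjusted p = 6.7e-11), while Pkm was nearest to its replete level at -0.44 (limma adjusted p = 0.0066). Both the drug and the glutamine level differ between these groups, and this comparison alone does not separate them. The comparisons above give the step in glutamine and the step with EIPA, each against or from vehicle at 0.2 mM. EIPA was given at 0.2 mM only, so whether its effect depends on the glutamine level cannot be told.

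IL-1a changed none of the 10 enzymes past the test. Against vehicle at 4 mM limma called 0 of 10, and 0.283% of all tested genes (35), of which 0.259% were higher and 0.0243% lower, and at an unadjusted p under 0.05 there were 2 of 10, Hk2 and Pfkl. Hk2 was at 30.7, 33.4, 37.7, 30.0 and 29.7 TPM with IL-1a (0.24 ± 0.08, limma adjusted p = 0.51). Pfkl was at 98.8, 84.2, 85.9, 79.2 and 68.4 TPM (0.25 ± 0.11, limma adjusted p = 0.73). Both overlapped their vehicle groups, as did the other 8 enzymes, where 0.777% of tested genes were higher without overlap and 0.599% lower. The differences of the other 8 lay between -0.08 (Gpi1) and 0.07 (Tpi1), with SE of at most 0.08, and Gapdh, at 5933 ± 172 TPM, was at 0.06 ± 0.04. Within the IL-1a group as within vehicle at 4 mM, replicate 5 was the lowest library in Pfkl, Pgk1, Pgam1 and Pkm.

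The response to EIPA was larger than the response to IL-1a in 6 enzymes by a test of the difference itself, where 28.9% of tested genes were called, 16.3% higher and 12.6% lower. These were Hk1, Gpi1, Pfkl, Aldoa, Tpi1 and Pkm, with Pfkl at 0.80 ± 0.15 (limma adjusted p = 6.0e-04) and Gpi1 at 0.54 ± 0.07 (limma adjusted p = 1.7e-05). Hk2 (0.24 ± 0.12, limma adjusted p = 0.13), Pgam1 (0.27 ± 0.11, limma adjusted p = 0.069), Gapdh (0.02 ± 0.06) and Pgk1 (estimate near 0, SE 0.12) did not pass. Pgam1 passed when EIPA replicate 4 or 5, low-glutamine vehicle replicate 5 or replete vehicle replicate 5 was left out (limma adjusted p from 0.022 to 0.039). The responses were measured at different glutamine levels, so that agent and level cannot be told apart.

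In the order of group means 7 enzymes (Hk1, Pfkl, Aldoa, Tpi1, Gapdh, Pgk1 and Pkm) were highest with IL-1a, then in replete vehicle, then with EIPA, and lowest in low-glutamine vehicle. Gpi1 and Pgam1 had the first pair in the other order. In all 9 the ranges of the libraries at 4 mM overlapped, so that their order is within the spread. The ranges with EIPA and in low-glutamine vehicle overlapped in Gapdh, Pgk1 and Pgam1. Those in replete vehicle and with EIPA overlapped in Pgk1 and Pkm. Hk2 alone had another order, with EIPA first, then IL-1a, low-glutamine vehicle and replete vehicle, and only EIPA stood clear of its neighbour. As the root mean square distance over the 20 libraries of log2 levels centred on each gene, Hk1 was nearest to the mean profile of the 10 (0.089), and Hk2 (0.52) and Pfkl (0.60) were farthest from it.

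The isozymes of a step shifted against each other. Levels in TPM are per length and can be compared between genes. Hk2 made up 44.4% ± 1.7 of the summed TPM of Hk1, Hk2, Hk3 and Hkdc1 in replete vehicle, 48.5% ± 2.6 with IL-1a, 64.8% ± 2.4 in low-glutamine vehicle and 65.4% ± 1.8 with EIPA (SD, n = 5). No library at 0.2 mM was under 62.7% and none at 4 mM over 51.6%. Hk1 held nearly all of the rest, and Hkdc1 and Hk3 were each at most 0.592 TPM in any group mean. The sum of these 4 genes was 61.1 ± 4.65 TPM in replete vehicle, 47.6 ± 0.642 TPM in low-glutamine vehicle and 66.9 ± 6.73 TPM with EIPA. These ratios within a library do not depend on the scaling between libraries.

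At phosphofructokinase Pfkl held 54.7% ± 3.8 of the step's TPM in replete vehicle, 30.3% ± 3.2 in low-glutamine vehicle and 41.5% ± 3.2 with EIPA. The platelet type Pfkp held 18.3% ± 1.2, 37.1% ± 1.9 and 33.8% ± 1.6, and the muscle type Pfkm 27.0% ± 4.0, 32.7% ± 3.1 and 24.7% ± 3.7. The step's sum was 127 TPM in replete vehicle (111 to 139 TPM over its libraries), 48.2 ± 2.15 TPM in low-glutamine vehicle and 75.4 ± 2.42 TPM with EIPA. Pfkm fell in low glutamine (-1.21 ± 0.09 relative to the median gene) as did Pfkp (-0.50 ± 0.09), and both rose with EIPA (0.22 ± 0.09 and 0.49 ± 0.09).

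**Figure D4:**
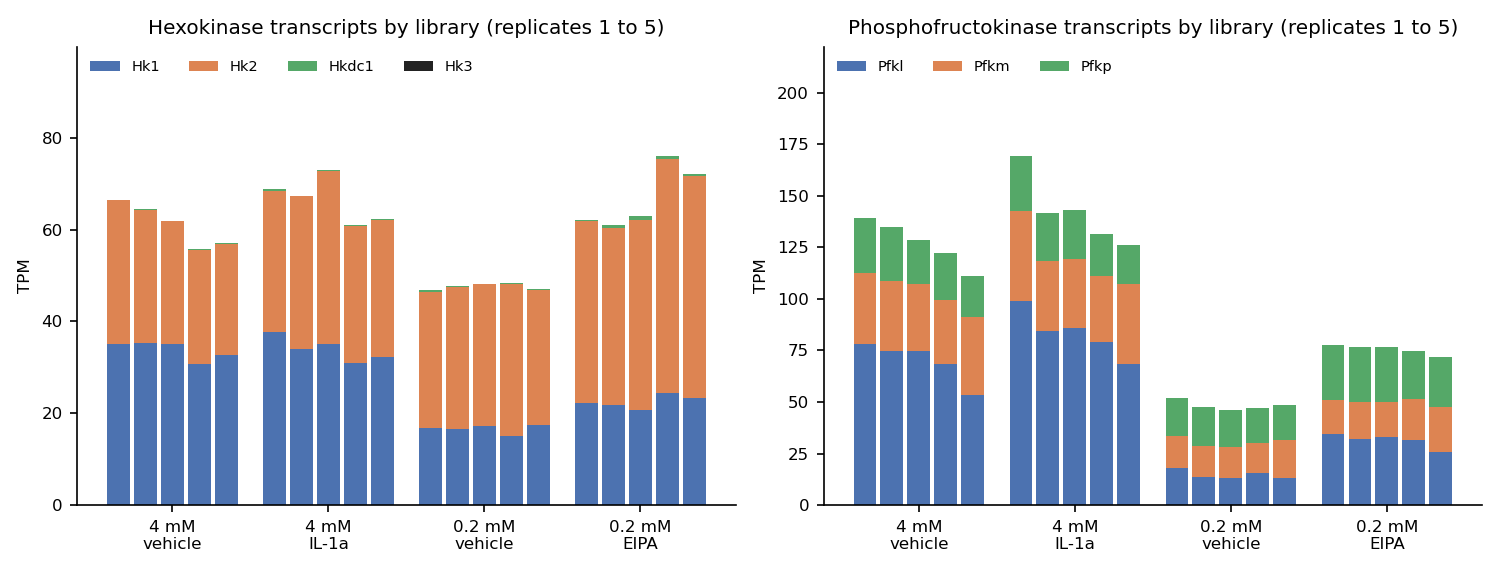
TPM of 4 hexokinase genes and of the phosphofructokinase genes (vertical axes, from 0), stacked in 1 bar for each library in the order of replicates 1 to 5 within each group. Hk2 holds 62.7% or more of each hexokinase bar at 0.2 mM and 51.6% or less at 4 mM, and the Pfkl part shrinks from 54.7% to 30.3% on average between replete and low-glutamine vehicle.

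At most other steps 1 gene held nearly all transcripts. Aldoa was at 99.5% or more of the summed TPM of Aldoa and Aldoc in each group mean, and the testis or liver forms Gapdhs, Pgk2 and Pklr and the muscle form Pgam2 were at most 0.02 TPM in any group mean. Enolase, which turns the product of Pgam1 into phosphoenolpyruvate, summed to 2102 ± 226 TPM in replete vehicle, 988 ± 70.2 TPM in low-glutamine vehicle and 1107 ± 51.5 TPM with EIPA. Eno1, its ubiquitous form, held 91.4% of this in replete vehicle, 88.9% in low-glutamine vehicle and 91.2% with EIPA, and Eno3 held 3.90%, 5.02% and 3.05%. Eno1 fell in low glutamine (-1.26 ± 0.08 relative to the median gene, limma adjusted p = 3.7e-11) and rose with EIPA (0.20 ± 0.08, limma adjusted p = 0.032). Eno1b is a near-identical copy of Eno1, so reads could be split between them and their levels are uncertain.

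Of the 17 other isozymes and relatives 8 passed the filter. In low glutamine 7 of the 8 fell (87.5%) and 1 rose (12.5%), against 27.9% and 45.4% of all tested genes. Their median was -0.75 before the shift, against 0.14 for all tested genes. The one that rose was Eno2, the neuronal enolase, from 10.2 ± 1.58 to 21.4 ± 4.05 TPM (0.85 ± 0.11 relative to the median gene, limma adjusted p = 7.8e-08). Bpgm, which makes 2,3-bisphosphoglycerate, fell slightly (-0.36 ± 0.08), and Aldoc (-0.92 ± 0.24) and the muscle enolase Eno3 (-0.85 ± 0.10) fell more. With EIPA 5 rose (62.5%), 1 fell (12.5%) and 2 did not pass, where 27.4% of all tested genes rose and 21.1% fell. Aldoc (1.22 ± 0.24, limma adjusted p = 2.5e-04) and Bpgm (0.74 ± 0.08, limma adjusted p = 9.1e-08) rose most, Eno3 fell (-0.54 ± 0.10, limma adjusted p = 1.8e-04), and Eno2 (-0.12 ± 0.11) and Eno1b (0.17 ± 0.11) did not pass. With IL-1a 0 of the 8 were called.

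Counts for genes on either side of the pathway stand beside 45.4% of all tested genes higher and 27.9% lower in low glutamine, and 27.4% higher and 21.1% lower with EIPA. Of 18 tested genes of pyruvate and lactate 5 rose (27.8%) and 6 fell (33.3%) in low glutamine. Their median was 0.11 before and -0.03 after the shift to the median gene. Ldha, lactate dehydrogenase, fell (-1.54 ± 0.07 relative to the median gene), from 709 ± 75.3 to 267 ± 16.5 TPM, as did Pdk1, which switches off pyruvate dehydrogenase (-1.37 ± 0.10). Pdhb, a subunit of that enzyme, rose (0.71 ± 0.07). With EIPA 4 of the 18 rose and 4 fell (22.2% each, median 0.02), near the shares of all tested genes. Pdp2, which reactivates pyruvate dehydrogenase (1.15 ± 0.09), and Pcx, pyruvate carboxylase (0.61 ± 0.09), rose, and Mpc1 of the mitochondrial pyruvate carrier fell (-0.27 ± 0.05).

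Of 16 tested genes of transport and control 7 rose and 7 fell in low glutamine (43.8% each), the first near the share of all tested genes. Their median was 0.07 before and -0.07 after the shift to the median gene. The lactate exporter Slc16a3 (-2.22 ± 0.09 relative to the median gene) and the glucose transporter Slc2a1 (-1.31 ± 0.11) fell. Txnip, which restrains glucose uptake (2.17 ± 0.19), and its relative Arrdc4 (1.54 ± 0.11) rose, Txnip from 46.8 ± 12.0 to 236 ± 71.1 TPM. With EIPA 7 of the 16 rose and 4 fell (median 0.12). Slc16a3 (1.15 ± 0.09) and Pfkfb4, which makes an activator of phosphofructokinase (1.07 ± 0.18), rose, and Txnip (-1.14 ± 0.19) and Slc2a3 (-0.75 ± 0.17) fell. Slc2a3 was low, with means of 2.86 TPM with EIPA and 5.51 TPM in vehicle at 0.2 mM. The more abundant Slc2a1 was higher with EIPA without overlap, at 36.8 to 43.7 TPM against 15.2 to 22.5 TPM.

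Of the 9 pentose phosphate genes, all tested, 3 rose (33.3%) and 5 fell (55.6%) in low glutamine. Over all tested genes 45.4% rose and 27.9% fell. The list's median was -0.40 before and -0.53 after the shift to the median gene. With EIPA 5 of the 9 rose (55.6%) and 2 fell (22.2%, median 0.56), against 27.4% and 21.1% of all tested genes. Pgd, the second dehydrogenase of that branch, went both ways (-1.86 ± 0.10 relative to the median gene, and 1.34 ± 0.10 with EIPA). Of 14 tested genes of the hexosamine, glycerol and serine branches 5 rose (35.7%) and 7 fell (50%) in low glutamine. Their median was -0.27 before and -0.41 after the shift. With EIPA 3 of the 14 rose and 3 fell (21.4% each, median 0.07), near the shares of all tested genes. Pgm1 of glycogen metabolism fell in low glutamine (-1.36 ± 0.05) and rose with EIPA (0.46 ± 0.05), and Psph of serine synthesis rose in low glutamine (1.23 ± 0.18). Of 2 tested genes of gluconeogenesis Pck2 fell in low glutamine (-0.62 ± 0.20, limma adjusted p = 0.036) and 0 were called with EIPA.

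Of 15 tested HIF targets outside glycolysis 6 rose and 6 fell in low glutamine, where 45.4% of all tested genes rose and 27.9% fell. Their median was 0.15 before the shift, against 0.14 for all tested genes. With EIPA 10 of the 15 rose and 0 fell, against 27.4% and 21.1% of all tested genes, and their median was 0.53. The list also held the HIF subunits, of which Epas1 was too low to be tested and Hif1a fell in low glutamine (-0.64 ± 0.08 relative to the median gene, limma adjusted p = 1.0e-05) and did not pass with EIPA (0.19 ± 0.08, limma adjusted p = 0.055). Ndrg1 (1.92 ± 0.13 relative to the median gene) and the oxidoreductase Ero1l (1.30 ± 0.08) rose in low glutamine, while Ddit4, an inhibitor of mTORC1 (-1.18 ± 0.20), and the oxygen sensor Egln3 (-1.10 ± 0.12) fell. With EIPA Ddit4 (2.38 ± 0.20) and Ankrd37 (1.44 ± 0.17) rose. Whether lists differ was not tested.

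**Figure D5:**
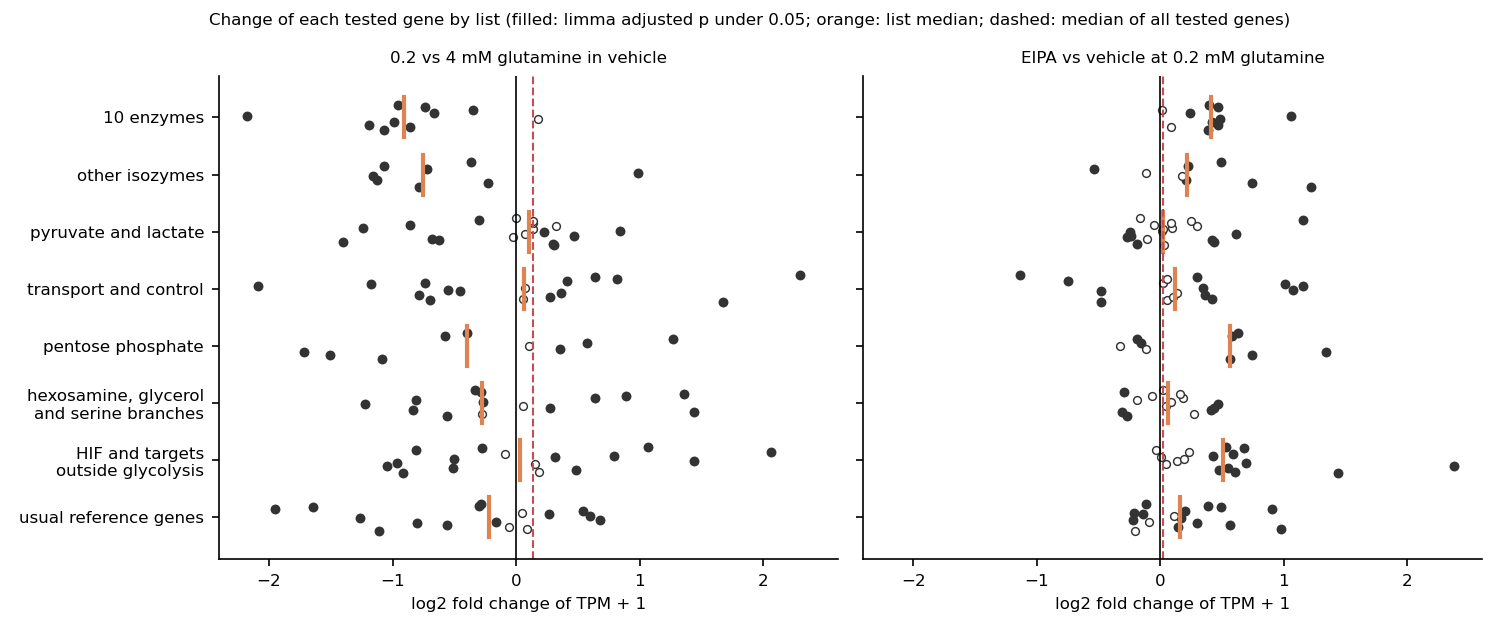
Log2 fold change of TPM + 1 (horizontal axis) of each tested gene in 8 lists, for low against high glutamine in vehicle and for EIPA against vehicle at 0.2 mM, filled where limma's adjusted p was under 0.05, with orange bars at list medians and a dashed line at the median of all tested genes. The enzymes' median is -0.91 in low glutamine and 0.41 with EIPA, and the medians of the HIF list, Hif1a included, are 0.03 and 0.51.

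Gapdh and Pgk1 are in common use as reference genes for RT-qPCR. Gapdh in low-glutamine vehicle was at 0.551 times its replete level, and with EIPA at 1.06 times its level in low-glutamine vehicle. Of 16 other usual reference genes, all tested, 4 rose (25%) and 9 fell (56.2%) in low glutamine. Their median there was -0.22 before and -0.36 after the shift to the median gene. Of all tested genes 45.4% rose and 27.9% fell there. With EIPA 9 of the 16 rose (56.2%) and 4 fell (25%), with a median of 0.16, against 27.4% and 21.1% of all tested genes. Tfrc, the transferrin receptor (-2.08 ± 0.17 relative to the median gene), and Tuba1a, a tubulin (-1.78 ± 0.08), fell most in low glutamine, and B2m rose with EIPA (0.98 ± 0.08), from 516 ± 48.6 to 1017 ± 83.7 TPM. With IL-1a 0 of the 16 were called.

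Among the genes whose pattern over the 20 libraries was most like the mean of the 10 enzymes, by the root mean square distance of centred log2 levels, were Psmd2, a proteasome subunit (0.067), Nde1 (0.087), Bin1 (0.089) and Uaca (0.092). Psmd2 had group means of 385 TPM in replete vehicle, 394 with IL-1a, 211 in low-glutamine vehicle and 263 with EIPA. Nearest to single enzymes were Capn1 to Hk1 (0.069), Rasa3 to Hk2 (0.11), Bub1b to Gpi1 (0.12), Plpp3 to Pfkl (0.17), Gclm to Aldoa (0.095) and Sept9 to Tpi1 (0.095). The proteasome genes Psmd3 and Psmc1 were nearest to Gapdh (0.071) and Pgk1 (0.052), Rpl24 to Pgam1 (0.074) and Nid1 to Pkm (0.094). For the level of 1 gene to stand near another is a description of these libraries.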

How the data were processed

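RNA of 20 libraries in 4 groups was sequenced as polyadenylated mRNA in reads of 75 bases from both ends, per the labels' protocols. Per the submitters' processing notes, the authors made the deposited TPM with RSEM on mm10. Versions, aligner and annotation were not found in those notes. Every library summed to 999999.47 to 1000000.84 TPM, so depth is unknown. Several enzymes have processed copies in the genome, and how reads were shared with them is not known.

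Of 32285 genes the 12350 that reached 1 TPM in 5 or more libraries were tested on the log2(TPM + 1) scale by limma (3.58.1, R 4.3.3), with 1 model of the 4 groups, an intensity trend and Benjamini-Hochberg adjustment over all of them, and called at an adjusted p under 0.05. The pseudocount of 1 TPM understates changes of low genes. Values after ± are the SE for log2 changes and the SD for levels. Of 2 Aldoa rows the higher was used. Members, lists and the rule for named genes were chosen with earlier results of these data known. The rule names all members and all tested isozymes, at most 2 called genes per direction and comparison from each other list, and the genes nearest in pattern. Positions are from GENCODE M21, which held 32158 of the IDs, and upstream sequences from RefSeq. The labels name no batch. Some genes that the rule names are not reported here.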

Additional observations from a re-analysis of the deposited data

Results flagged for a closer look

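Gpi1 in replete vehicle replicate 3 was at 332.29 TPM, while the other 4 libraries of its group lay between 298.55 and 305.20 TPM. It was marked because its gap to the nearest library is 0.803 of the group's whole range, above the critical value of 0.71 for 5 libraries (Dixon). In all, 44 groups of 5 values were looked at in this way and 1 was marked, where chance marks about 1 in 20. Without this library Gpi1 was still called lower in low glutamine.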

How the results depend on the processing

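Over all alternatives the counts of enzymes called stayed at 8 higher with EIPA, 9 lower in low glutamine and 0 with IL-1a. In low glutamine 1 enzyme, Hk2, was called higher with only the groups compared in the model, and 0 to 1 when each library was left out. With only the groups compared 19 genes were called with IL-1a in place of 35. Values near 0 that turned sign were uncalled. With EIPA, Pgk1 was at -0.026 under median-of-ratios scaling, -0.012 under quantile normalisation and -0.037 without mitochondrially encoded genes, and from -0.017 to 0.053 when each library was left out. With IL-1a, Hk1 was at -0.0027 and -0.0010 and Pkm at -0.00073 and -0.021 under the first pair of scalings, and Hk1 at -0.032 without the 3 libraries that stand apart, an alternative chosen after seeing the data. Leaving out each library gave -0.030 to 0.041 for Hk1, -0.064 to 0.068 for Pgk1, -0.081 to 0.012 for Pgam1 and -0.061 to 0.079 for Pkm. In the difference between responses Gapdh was at -0.0083, -0.076 and -0.024 under the 3 scalings and from -0.011 to 0.044, and Pgk1 from -0.056 to 0.076, when each library was left out. Without mitochondrially encoded genes the enzymes' share of TPM was 0.768% with EIPA, 0.683% in low-glutamine vehicle, 1.26% with IL-1a and 1.22% in replete vehicle. The cause of these changes was not tested. TPM keep no depth, so counting error is unknown.

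The replicate numbers were not taken as a pairing, because the labels give them no meaning and not every same-numbered pair deviated together with a correlation over 0.1. These correlations were 0.06 to 0.32 for EIPA and vehicle (4 of 5 over 0.1), -0.28 to 0.60 for IL-1a and vehicle (4 of 5) and 0.05 to 0.17 for the vehicle groups (2 of 5). Libraries correlated best with their own number in 4, 2 and 4 of 5, a hint from the data that numbers may share something. With a replicate block 6305 genes were called with EIPA in place of 5986, 39 with IL-1a in place of 35 and 9230 between glutamine levels in place of 9055, and the enzymes called stayed at 8, 0 and 9.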
